A study of Mus musculus with 42 samples.

Results

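The enzymes and adaptors that remove the poly(A) tail, open the cap and degrade the body of an mRNA are themselves encoded by mRNAs, and the data gave the level and the half-life of these messages in macrophages with and without TTP. The set was a list of 45 genes: subunits of the CCR4-NOT deadenylase and its BTG/TOB adaptors, the deadenylases Pan2, Pan3 and Parn, the decapping factors, the Lsm ring, the 5′-3′ exonucleases, the exosome, and poly(A) and mRNA binding factors with Upf1. They were found by gene symbol. All 45 were among the 21951 genes of the expression table, and 44 were among the 12558 genes of the decay table. The same 44 had a mean of at least 1 FPKM (read fragments per kilobase of transcript, scaled to library size) and were compared with the other genes past that limit. Lsm7, at 0.05 to 0.53 FPKM, was below the limit and had no decay rate.

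Degradation of most mRNAs starts with shortening of the poly(A) tail. PAN2-PAN3 and CCR4-NOT carry this out, and CCR4-NOT is brought to a message by RNA binding proteins such as TTP (tristetraprolin, the product of Zfp36), which reads AU-rich elements in the 3′ UTR. A deadenylated message is then either decapped by DCP2, with help from DCP1, EDC3, EDC4, DDX6 and the LSM1-7 ring, and digested by XRN1, or it is digested by the exosome with the SKI complex. In macrophages stimulated with LPS (lipopolysaccharide, a bacterial cell wall component that acts on TLR4), this route limits the production of cytokines.

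Bone marrow-derived macrophages (BMDMs) were grown from 7- to 9-week-old C57BL/6 mice. ΔM macrophages, labelled TTP-/-, came from mice lacking TTP in myeloid cells through LysM-cre, and WT macrophages came from littermates. Both were taken without LPS (0 h) or after 3 or 6 h of LPS at 10 ng/ml. At 3 and 6 h, cells were also taken 45 and 90 min after addition of actinomycin D at 5 µg/ml, which blocks transcription, besides those at 0 min. The 42 libraries formed 14 groups of 3 biological replicates. The tables used here held 1 pooled FPKM for each of the 6 groups without actinomycin D and 1 decay rate for each genotype at 3 and 6 h of LPS. The spread between replicates and the depth of the libraries are therefore unknown, no difference below was tested, and all of them are descriptions. A difference was counted when it reached 1.5-fold.

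Zfp36 itself was at 5.98, 16.3 and 31.0 FPKM at 0, 3 and 6 h in ΔM macrophages, against 118, 1017 and 1782 FPKM in WT macrophages. The 6 macrophage markers measured (Cd68, Csf1r, Adgre1, Itgam, Lyz2 and Mertk) were all at 1 FPKM or more in every group. The summed level of 5 neutrophil markers was 2.54 to 34.2 FPKM in ΔM and 1.90 to 16.0 FPKM in WT macrophages, with Mpo and Elane under 1 FPKM in every group. The T cell, B cell, dendritic cell, fibroblast and erythroid lists summed to at most 2.85 FPKM in ΔM and 3.40 FPKM in WT macrophages. In cultures such as these, fewer cells of a type and less RNA per cell cannot be told apart.

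The messages of the decay machinery spanned a wide range of levels. FPKM is scaled by length, and levels are set side by side between genes on that basis. Length scaling does not remove differences in base composition, so the order of genes by level is approximate. The median of the 45 mean levels was 10.3 FPKM, against 9.08 FPKM for the 11128 genes past the limit. Pabpc1, the main cytoplasmic poly(A)-binding protein, stood far above the other members. It was at 962, 835 and 565 FPKM in ΔM macrophages at 0, 3 and 6 h, against 1008, 757 and 601 FPKM in WT macrophages. Lsm2, a subunit of the Lsm ring that binds the oligoadenylated 3′ end, came next with a mean of 103 FPKM. Cnot3, a CCR4-NOT subunit, followed with 58.3 FPKM. Cnot7, the more abundant of the CAF1-type nucleases, averaged 32.0 FPKM, Xrn2 averaged 37.6 FPKM and Dcp2 13.7 FPKM. Parn, a poly(A)-specific ribonuclease, was at 1.46 FPKM and Pan2, the nuclease of PAN2-PAN3, at 1.62 FPKM, whereas Pan3, which brings Pan2 to the poly(A) tail, was at 32.2 FPKM. Within the exosome, Exosc9 was the most abundant member with 34.2 FPKM and Exosc3, a cap subunit, the least abundant with 3.55 FPKM.

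Most of these messages were long-lived. The half-life is the inverse of the rate at which log2 FPKM declined under actinomycin D, and 180 min or more was written as stable. FPKM is relative to the library, so a long-lived message can show a rate above 0. At 3 h of LPS, 12 of 44 members in ΔM and 9 of 44 in WT macrophages had a half-life under 180 min, against 23.1% of 10963 genes in ΔM and 21.9% in WT. At 6 h the counts were 11 of 44 in ΔM and 10 of 44 in WT macrophages, against 18% of genes in ΔM and 23.4% in WT. These counts were close to the shares among all genes. In none of the 4 groups did a CCR4-NOT nuclease (Cnot6, Cnot6l, Cnot7 and Cnot8), an Lsm gene, an exonuclease (Xrn1 and Xrn2), Upf1, Pum2 or a poly(A)-binding protein fall under 180 min. Together with others, 28 members were stable in all 4 groups, as were 64.8% of all genes. The closest of them to the limit was Xrn1, with a half-life of 184 min in WT macrophages at 6 h.

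**Figure D1:**
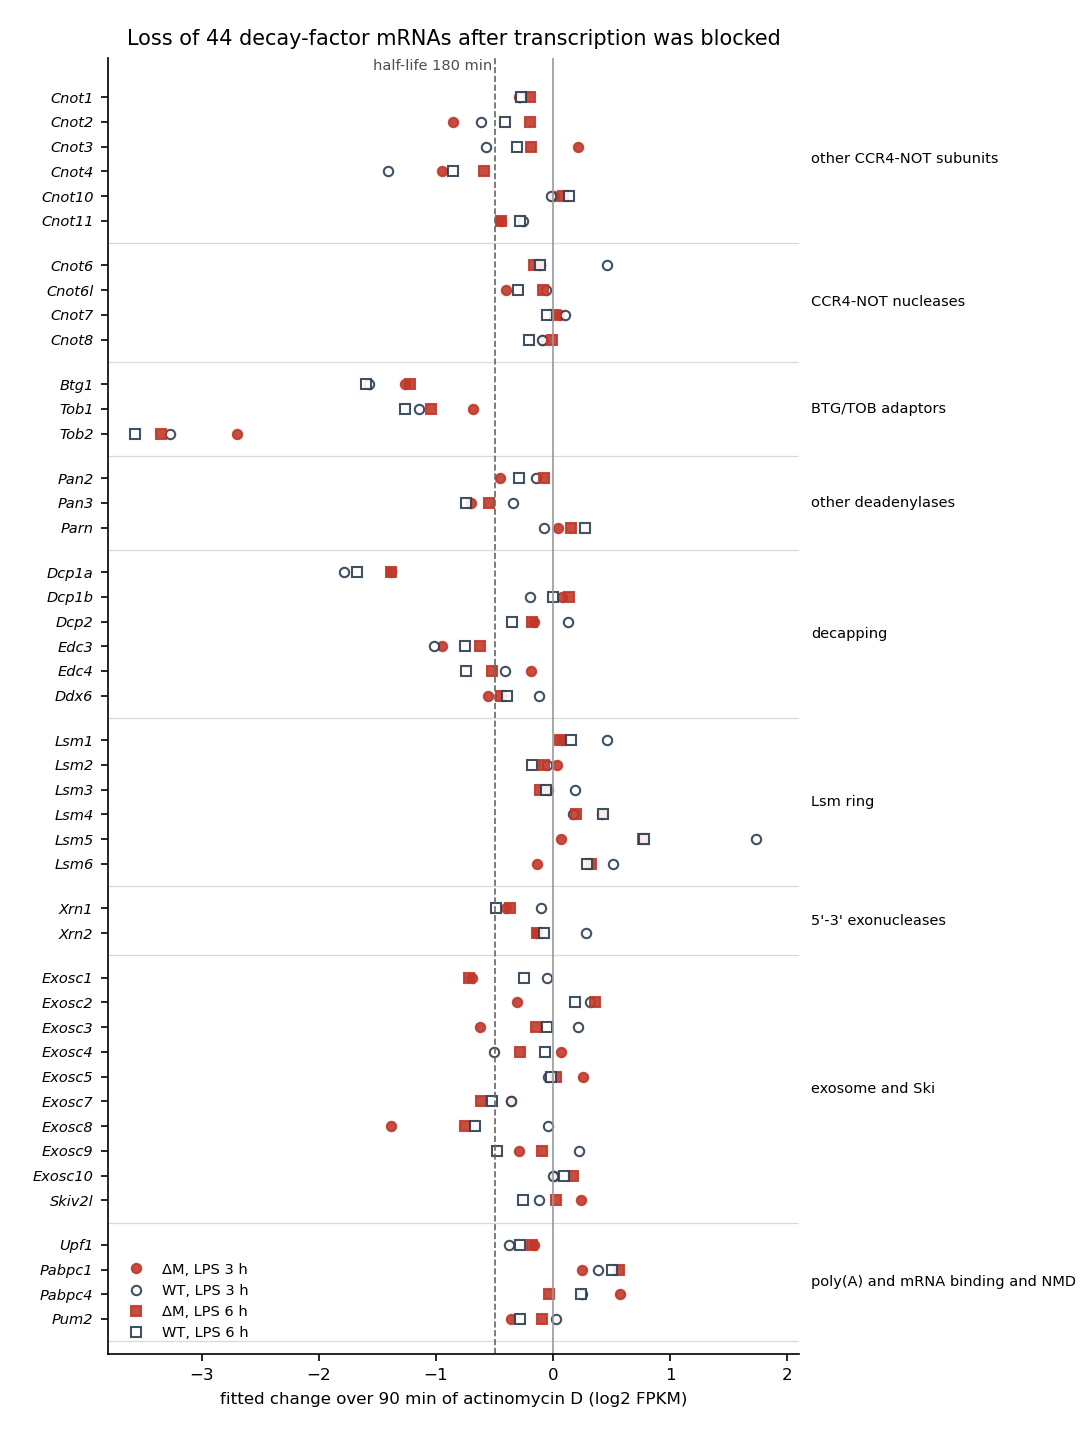
Fitted change of each of 44 messages over 90 min of actinomycin D (log2 FPKM, horizontal axis), by role in the pathway. Filled red symbols are ΔM and open dark symbols WT macrophages, circles LPS 3 h and squares LPS 6 h, 1 pooled rate each, and the dashed line marks a half-life of 180 min. Tob2 lies farthest to the left, between -3.57 and -2.70, and the Lsm ring and Pabpc1 lie near or right of 0.

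A half-life under 180 min in all 4 groups was found for 6 members, Cnot4, Btg1, Tob1, Tob2, Dcp1a and Edc3, against 11.4% of all genes. These included all 3 BTG/TOB adaptors, which bind the CAF1-type nucleases and recruit CCR4-NOT. Tob2 was lost fastest, with half-lives of 33.3 and 26.9 min at 3 and 6 h in ΔM macrophages, against 27.5 and 25.2 min in WT macrophages. Of its message, 15.4% and 9.80% remained after 90 min by the fit in ΔM macrophages at 3 and 6 h, against 10.4% and 8.41% in WT. Btg1 had half-lives of 71.0 and 73.5 min in ΔM macrophages, against 57.2 and 56.4 min in WT. Tob1, the paralogue of Tob2, was at 131 and 86.4 min in ΔM macrophages and 78.7 and 71.3 min in WT macrophages. The short-lived decapping messages were those of 2 helpers and not of the enzyme. Dcp1a, the activating partner of Dcp2, had half-lives of 65.2 and 64.9 min at 3 and 6 h in ΔM macrophages, against 50.3 and 53.7 min in WT. Edc3, an enhancer of decapping, was at 95.1 and 144 min in ΔM macrophages and 88.2 and 120 min in WT macrophages. Dcp2 was stable in all 4 groups, and so was Dcp1b, the paralogue of Dcp1a. In CCR4-NOT the short-lived message was Cnot4, the E3 ubiquitin ligase subunit, with 95.1 and 152 min in ΔM macrophages and 63.9 and 105 min in WT macrophages.

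The 3′ UTRs of these 6 messages were searched for AUUUA, the core of AU-rich elements, and for UAUUUAU, a longer form that contains it. The longest annotated 3′ UTR of each gene was used, on the sense strand. Shown are 30 bases of each 3′ UTR in the DNA alphabet, chosen to hold UAUUUAU where present and otherwise the most copies of AUUUA, with each AUUUA in capitals.
Tob2: ctatcacctgcttATTTAtgtacgaggttg
Dcp1a: tgccatggtttctATTTAtgcttttatggc
Edc3: cagcttctagcttATTTAttggcttgcctt
Tob1: taattgtataATTTAATTTAgtacaaagtt
Btg1: gatggattatggaATTTAaaccatgtcaca
Cnot4: agcctgcATTTAaaagtgaATTTAcagcaa

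In GENCODE on mouse build NCBIM37, an earlier build than the mm10 assembly used for the reads, these windows lay in 3′ UTR exons. Tob2 was at chr15:81680290-81680319 on the minus strand and Dcp1a at chr14:31337503-31337532 on the plus strand. Edc3 was at chr9:57598359-57598388 and Tob1 at chr11:94076366-94076395, both on the plus strand. Btg1 was at chr10:96081357-96081386 on the plus strand and Cnot4 at chr6:34994687-34994716 on the minus strand. AUUUA occurred in all 6 of these 3′ UTRs, with 11 copies in Btg1, 9 in Cnot4, 6 in Dcp1a, 4 in Tob2, 3 in Tob1 and 1 in Edc3. It also occurred in 24 of the 37 other members with an annotated 3′ UTR and a decay rate, and in 68.1% of 9626 genes. Among genes with a 3′ UTR of at least 500 bases, as all 6 have, 80.2% held it. UAUUUAU was present once each in Tob2, Dcp1a and Edc3, in 9 of the 37 other members and in 28.0% of the 9626 genes. Its share was 34.7% with a 3′ UTR of at least 500 bases, and 36.6% among 1160 genes short-lived in all 4 groups. The 6 are not matched in length to the 500-base subset, with a median 3′ UTR of 3649.5 bases against 1613. Members with still more copies were long-lived. Cnot6l with 28 copies, Dcp2 with 18, Pum2 with 15 and Cnot6 with 13 had more copies than any of the 6. All of these were stable in all 4 groups. The 3′ UTRs differ in length. Per kilobase, Cnot6l had 4.09 copies, Cnot6 3.52, Pum2 2.55 and Dcp2 2.49, while the 6 ranged between 0.25 in Edc3 and 3.91 in Tob1.

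More members differed by 1.5-fold between LPS times than between genotypes. At 3 h compared with 0 h, 4 members were at least 1.5-fold higher and 12 at least 1.5-fold lower in ΔM macrophages, against 11.6% and 31.2% of 11128 genes. In WT macrophages 3 members were higher and 12 lower, against 11.3% and 33.8% of genes. All genes together were lower at 3 h, with a median log2 ratio of -0.34 in ΔM and -0.37 in WT macrophages. With that shift taken off, 5 members were higher and 4 lower in ΔM macrophages (18.5% and 14% of genes), and 4 higher and 5 lower in WT macrophages (18% and 13.7%). The higher members with the shift taken off were Dcp2, Dcp1a, Xrn1 and Cnot7 in both genotypes, and Cnot4 in ΔM macrophages. The ratio of 3 h over 0 h also ran with the GC content of transcripts, more so in ΔM. Spearman's rho was -0.30 in ΔM and -0.11 in WT macrophages over 9832 genes, and -0.51 and -0.13 over 43 members. With the medians of GC bins described below taken off, Cnot4 in ΔM macrophages was within the limit, at 0.35. Dcp2, Dcp1a, Xrn1 and Cnot7 stayed past it in both genotypes, and Edc4 (0.59) came past it in WT macrophages. Dcp2, the decapping enzyme, was at 4.99 FPKM without LPS, 22.6 FPKM at 3 h and 14.5 FPKM at 6 h in ΔM macrophages, against 5.32, 19.5 and 15.7 FPKM in WT macrophages. The log2 ratio of 3 h over 0 h, computed here and below on FPKM + 1, was 1.98 in ΔM and 1.69 in WT macrophages, and placed Dcp2 at the 97.1st and 95.9th percentile of all genes. Xrn1, which digests decapped mRNA, was at 4.27, 10.1 and 11.2 FPKM in ΔM macrophages and 4.87, 9.17 and 14.1 FPKM in WT macrophages at 0, 3 and 6 h. Its log2 ratio at 3 h was 1.07 in ΔM and 0.79 in WT macrophages. Dcp1a was at 8.0, 15.1 and 18.1 FPKM in ΔM macrophages, against 9.11, 18.1 and 20.1 FPKM in WT, and was thus higher at both LPS times in both genotypes. Cnot7 was at 24.5, 39.4 and 29.0 FPKM in ΔM macrophages and 27.1, 37.6 and 34.2 FPKM in WT macrophages, with log2 ratios at 3 h of 0.66 and 0.46.

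**Figure D2:**
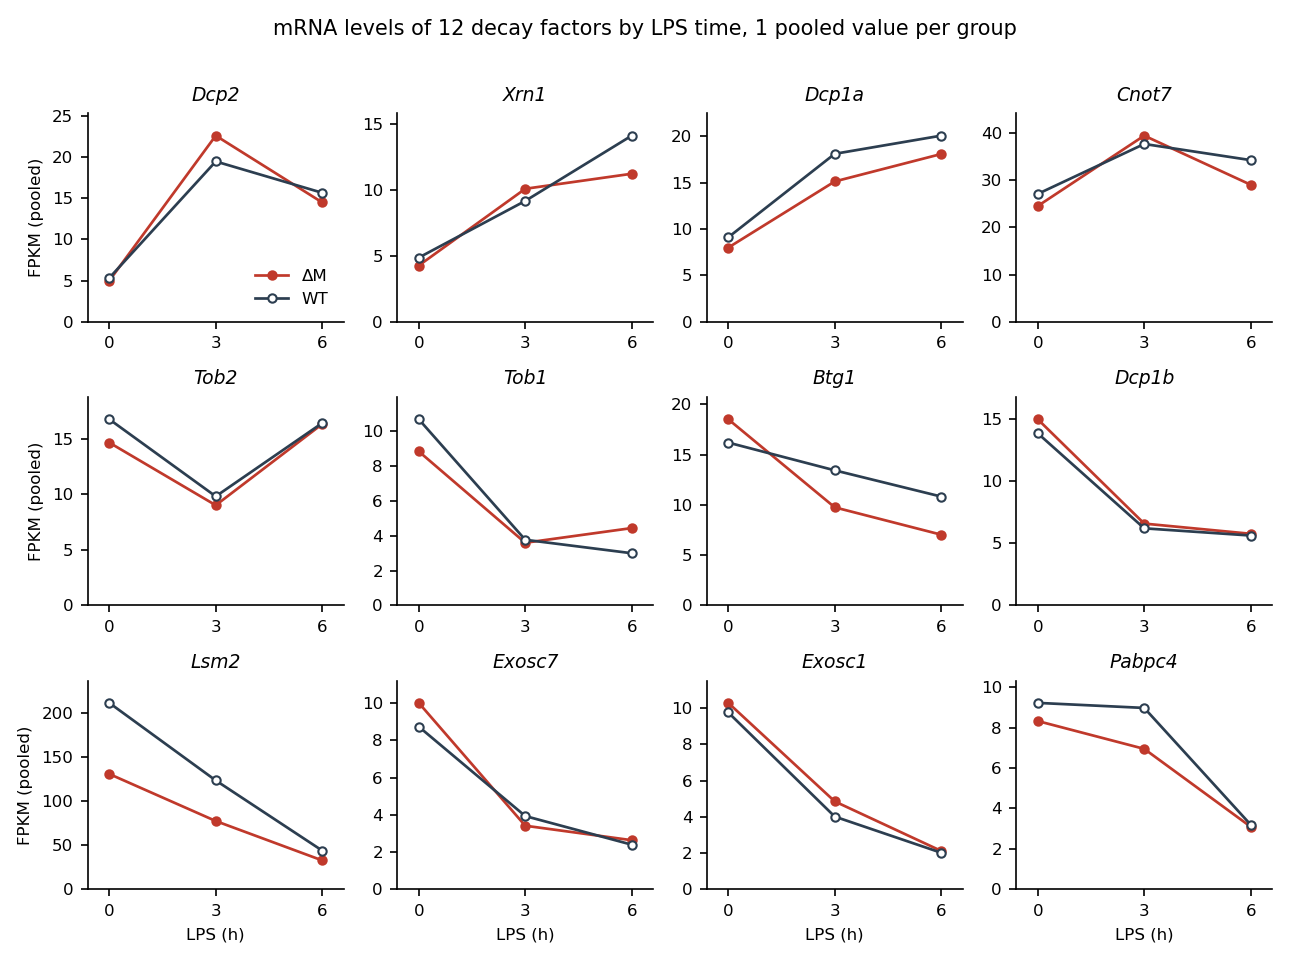
FPKM of 12 decay factors (vertical axes, from 0, scaled per gene) at 0, 3 and 6 h of LPS, with ΔM macrophages as filled red and WT macrophages as open dark points, 1 pooled value per group. Dcp2 peaks at 3 h with 22.6 FPKM in ΔM and 19.5 FPKM in WT macrophages, Tob2 dips at 3 h, and Lsm2 is lower in ΔM macrophages at all 3 times.

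The lower members at 3 h with the median shift taken off were Tob1, Dcp1b, Exosc1 and Exosc7 in both genotypes, and Exosc8 in WT macrophages. With the medians of GC bins taken off, Exosc7 (-0.52) and Exosc8 (-0.56) were within the limit in WT macrophages. Btg1 (-0.83) then lay past it on the lower side in ΔM macrophages. Of the 3 BTG/TOB adaptors, 3 were at least 1.5-fold lower at 3 h than at 0 h in ΔM macrophages and 2 in WT macrophages. Of all genes, 31.2% in ΔM and 33.8% in WT macrophages were lower by that much. With the shift taken off this held for Tob1 alone in each genotype, against 14% and 13.7% of genes. Tob1 was at 8.82, 3.59 and 4.43 FPKM at 0, 3 and 6 h in ΔM macrophages, against 10.7, 3.76 and 2.99 FPKM in WT macrophages. Tob2 was at 14.7, 9.02 and 16.3 FPKM in ΔM macrophages and 16.8, 9.82 and 16.4 FPKM in WT macrophages, so that its level at 6 h was near that at 0 h. Btg1 was at 18.5, 9.76 and 7.04 FPKM in ΔM macrophages, against 16.2, 13.4 and 10.8 FPKM in WT, with log2 ratios at 3 h of -0.86 in ΔM and -0.25 in WT macrophages. The WT value was within the limit and above the median of all genes, -0.37. The 10 exosome and Ski members summed to 167, 117 and 83.0 FPKM in ΔM macrophages, against 186, 131 and 95.7 FPKM in WT macrophages. At 3 h, 5 of the 10 were at least 1.5-fold lower than at 0 h in ΔM macrophages and 4 of 10 in WT macrophages. The shares of all genes were again 31.2% and 33.8%. With the median shift of all genes taken off, 2 and 3 of them remained past that limit, against 14% and 13.7% of genes. Exosc7, a ring subunit of the exosome, was at 10.0, 3.41 and 2.63 FPKM in ΔM macrophages and 8.74, 3.93 and 2.39 FPKM in WT macrophages. Exosc1, a cap subunit, was at 10.3, 4.85 and 2.11 FPKM in ΔM macrophages, against 9.77, 4.01 and 2.01 FPKM in WT.

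Between 3 and 6 h, 1 member was higher and 9 were lower by 1.5-fold in ΔM macrophages, against 7.90% and 19.1% of genes, and 1 was higher and 5 lower in WT macrophages, against 9.02% and 20%. The median of all genes was -0.21 in both genotypes. With it taken off, 1 member was higher and 3 were lower in ΔM macrophages (13% and 10.2% of genes), and 4 were higher and 3 lower in WT macrophages (14.5% and 11%). Those 4 were Tob2, Xrn1, Xrn2 and Edc3, and the lower ones were Lsm2 and Pabpc4 in both genotypes, Exosc1 in ΔM and Exosc5 in WT macrophages. This comparison and that of 3 h with 0 h use the same 3 h groups. Tob2 was the member higher by 1.5-fold as measured in both genotypes, with a log2 ratio of 0.79 in ΔM and 0.69 in WT macrophages. Next came Cnot8 and Edc3 (0.29 each) in ΔM macrophages, and Xrn1 (0.57) and Xrn2 (0.46) in WT macrophages. Lsm2 had the largest negative ratio in both, -1.22 in ΔM and -1.48 in WT macrophages. Pabpc4, an inducible poly(A)-binding protein, was at 8.33, 6.95 and 3.09 FPKM at 0, 3 and 6 h in ΔM macrophages, against 9.23, 8.98 and 3.19 FPKM in WT, a later drop in level than that of Exosc7 or Tob1. Exosc5, another ring subunit, was at 35.1, 21.6 and 13.98 FPKM in ΔM macrophages and 37.0, 27.7 and 15.1 FPKM in WT macrophages.

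Some paralogues with the same role had different courses. Dcp1a was less abundant than Dcp1b without LPS and more abundant with it. Dcp1b was at 14.99, 6.59 and 5.77 FPKM at 0, 3 and 6 h in ΔM macrophages, against 13.9, 6.21 and 5.63 FPKM in WT. The ratio of Dcp1a to Dcp1b was 0.534, 2.30 and 3.14 in ΔM macrophages and 0.657, 2.92 and 3.56 in WT macrophages. Cnot7 over Cnot8, the alternative CAF1-type nucleases of the complex, was 1.67, 3.05 and 1.80 in ΔM macrophages and 1.95, 3.40 and 3.10 in WT macrophages. Cnot8 was at 14.7, 12.9 and 16.1 FPKM in ΔM macrophages, against 13.9, 11.1 and 11.02 FPKM in WT macrophages, so that the genotypes were farthest apart at 6 h. The CCR4-type nucleases Cnot6 and Cnot6l stayed within 1.5-fold of each other in all 6 groups, with ratios of 1.01 to 1.22 in ΔM and 1.06 to 1.47 in WT macrophages. Tob1 over Tob2 was 0.602, 0.398 and 0.271 in ΔM macrophages and 0.636, 0.383 and 0.182 in WT macrophages. Pabpc1 exceeded Pabpc4 at least 84.3-fold in every group. How reads shared by near-identical copies were assigned is not given in the sources used here, which leaves levels of such pairs less certain, above all for Pabpc1.

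Other members were steadier over the LPS course or moved in part of it. In CCR4-NOT, the scaffold Cnot1, on which the other subunits assemble, was at 7.87, 6.31 and 5.10 FPKM at 0, 3 and 6 h in ΔM macrophages, against 9.66, 6.94 and 6.05 FPKM in WT macrophages. Cnot3 was at 77.9, 43.3 and 49.4 FPKM in ΔM macrophages and 74.2, 58.7 and 46.4 FPKM in WT macrophages, with its lowest level at 3 h in ΔM and at 6 h in WT. Cnot10, a subunit of an accessory module, was the least abundant of the complex, with 2.84, 1.72 and 1.18 FPKM in ΔM macrophages and 2.98, 2.26 and 1.39 FPKM in WT macrophages. The nuclease Cnot6 was at 10.6, 10.99 and 6.88 FPKM in ΔM macrophages, against 14.5, 10.3 and 8.86 FPKM in WT, with log2 ratios of ΔM over WT of -0.42, 0.09 and -0.32. Cnot6l was at 9.81, 8.99 and 6.81 FPKM in ΔM macrophages, against 13.7, 7.61 and 6.04 FPKM in WT. Its log2 ratio of ΔM over WT was -0.44, 0.21 and 0.15 at the 3 times. With the medians of GC bins described below taken off, the ratio at 3 h was -0.11 for Cnot6 and 0.02 for Cnot6l. For Cnot3 it was -0.23, beside -0.43 as measured.

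Of the other deadenylases, Pan3 was at 39.8, 36.9 and 22.5 FPKM in ΔM macrophages and 41.2, 28.4 and 24.3 FPKM in WT macrophages. Its half-life was 128 and 165 min at 3 and 6 h in ΔM macrophages, while in WT macrophages it was stable at 3 h and 121 min at 6 h. Parn was at 1.54, 1.14 and 1.01 FPKM in ΔM macrophages, against 2.29, 1.61 and 1.17 FPKM in WT, lower in ΔM at each time. In decapping, Ddx6, an RNA helicase that represses translation and promotes decapping, was the member whose highest and lowest levels lay closest together. It was at 15.2, 14.98 and 14.5 FPKM in ΔM macrophages and 16.9, 13.6 and 14.3 FPKM in WT macrophages. Its half-life was 161 min in ΔM macrophages at 3 h, and it was stable in the 3 other groups. Edc3, whose message was short-lived, was at 5.03, 4.12 and 5.27 FPKM in ΔM macrophages, against 5.48, 3.96 and 5.59 FPKM in WT. As measured, its level stayed within 1.5-fold between successive LPS times in both genotypes. With the median of all genes taken off, it was past that limit between 3 and 6 h in WT macrophages. Xrn2, the mainly nuclear exonuclease, was at 32.5, 37.5 and 44.9 FPKM in ΔM macrophages and 30.9, 33.3 and 46.3 FPKM in WT macrophages, with the highest level at 6 h in both genotypes, as for Xrn1.

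In the exosome, Exosc9 was at 36.0, 32.5 and 23.4 FPKM in ΔM macrophages, against 47.5, 35.1 and 30.6 FPKM in WT, lower in ΔM at each time. Exosc8 was at 9.6, 6.20 and 3.84 FPKM in ΔM macrophages, against 11.5, 5.25 and 3.18 FPKM in WT. Exosc2, a cap subunit, was at 6.4, 3.21 and 1.54 FPKM in ΔM macrophages, against 6.21, 2.96 and 1.83 FPKM in WT. The level of both was lower at each later time in both genotypes. Exosc4, a ring subunit, was at 5.70, 3.18 and 3.79 FPKM in ΔM macrophages, against 5.82, 3.83 and 3.37 FPKM in WT. Exosc10, a nuclease that associates with the complex in the nucleus, was at 37.7, 28.03 and 17.2 FPKM in ΔM macrophages and 43.4, 32.1 and 20.9 FPKM in WT macrophages. Skiv2l, the helicase of the SKI complex, was between 10.6 and 11.5 FPKM in ΔM macrophages and between 12.5 and 13.6 FPKM in WT macrophages. Its log2 ratios of ΔM over WT were -0.10, -0.34 and -0.30 at 0, 3 and 6 h, within the limit. With the medians of GC bins described below taken off, the ratio at 3 h was -0.14. Upf1, the helicase of nonsense-mediated decay, was at 6.0, 3.44 and 3.30 FPKM in ΔM macrophages, against 5.72, 3.67 and 3.58 FPKM in WT. Pum2, a sequence-specific RNA binding protein that recruits CCR4-NOT, stayed between 38.9 and 44.9 FPKM in ΔM macrophages and between 38.9 and 49.7 FPKM in WT macrophages.

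Levels in ΔM and WT macrophages were close for nearly all members. Without LPS no member was 1.5-fold higher and 1 was lower in ΔM macrophages, against 3.32% and 4.79% of genes. At 3 h the counts were again 0 and 1, against 3.25% and 4.38%, and at 6 h they were 0 and 0, against 1.67% and 3.06%. The median log2 ratio of the 44 members was -0.12, -0.06 and -0.11 at 0, 3 and 6 h, beside -0.05, -0.02 and -0.03 for all genes. The member past the limit at 0 and 3 h was Lsm2, at 131, 77.5 and 32.6 FPKM in ΔM macrophages at 0, 3 and 6 h, against 212, 124 and 43.8 FPKM in WT macrophages. Its log2 ratio was -0.69, -0.67 and -0.41, so ΔM macrophages were lower at each time and past the limit only at the first and second. With the medians of GC bins described below taken off, the ratio at 3 h was -0.58, just within the limit. Lsm2 was stable in all 4 groups. Of the neutrophil markers at 0 h, S100a8 was at 14.2 FPKM in ΔM and 6.84 FPKM in WT macrophages, and S100a9 at 18.4 FPKM in ΔM and 8.34 FPKM in WT macrophages. Ly6g was at 1.15 FPKM in ΔM and 0.32 FPKM in WT macrophages at 0 h. Mpo was at 0.31 FPKM in both, and Elane at 0.09 FPKM in ΔM and 0.22 FPKM in WT. At 3 h S100a8 was at 1.57 FPKM in ΔM and 0.85 FPKM in WT macrophages, and S100a9 at 0.84 and 0.74 FPKM. Mpo and Elane were then lower in ΔM macrophages, under 1 FPKM in both genotypes. Lyz2, listed as a macrophage marker, is also the gene that LysM-cre is named after. An effect of that allele on its level was not tested. Lyz2 was at 4067, 3098 and 2043 FPKM at 0, 3 and 6 h in ΔM macrophages. In WT macrophages it was at 6936, 4841 and 3541 FPKM. Adgre1 and Itgam were also lower in ΔM macrophages at each time. Mertk was higher at each time, at 10.75, 11.4 and 11.2 FPKM in ΔM, against 6.75, 5.36 and 7.78 FPKM in WT. Cd68 was higher in ΔM at 0 and 6 h and Csf1r at 0 h, and both were lower at the other times. The part of these markers in the genotype differences was not tested. The other Lsm genes were within the limit. Lsm3 was at 52.2, 35.04 and 28.2 FPKM in ΔM macrophages and 68.2, 40.4 and 35.7 FPKM in WT macrophages, also lower in ΔM at each time, with the log2 ratio at 6 h being -0.33. Lsm4 was at 27.3, 24.9 and 22.2 FPKM in ΔM macrophages, against 35.8, 33.4 and 24.5 FPKM in WT. Lsm1, the subunit that sets the cytoplasmic ring apart from the nuclear one, was at 3.88, 2.61 and 2.97 FPKM in ΔM macrophages, against 3.39, 2.13 and 2.73 FPKM in WT, higher in ΔM at each time and within the limit. Lsm5 was at 1.53, 1.14 and 0.60 FPKM in ΔM macrophages, against 1.56, 0.64 and 0.59 FPKM in WT.

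**Figure D3:**
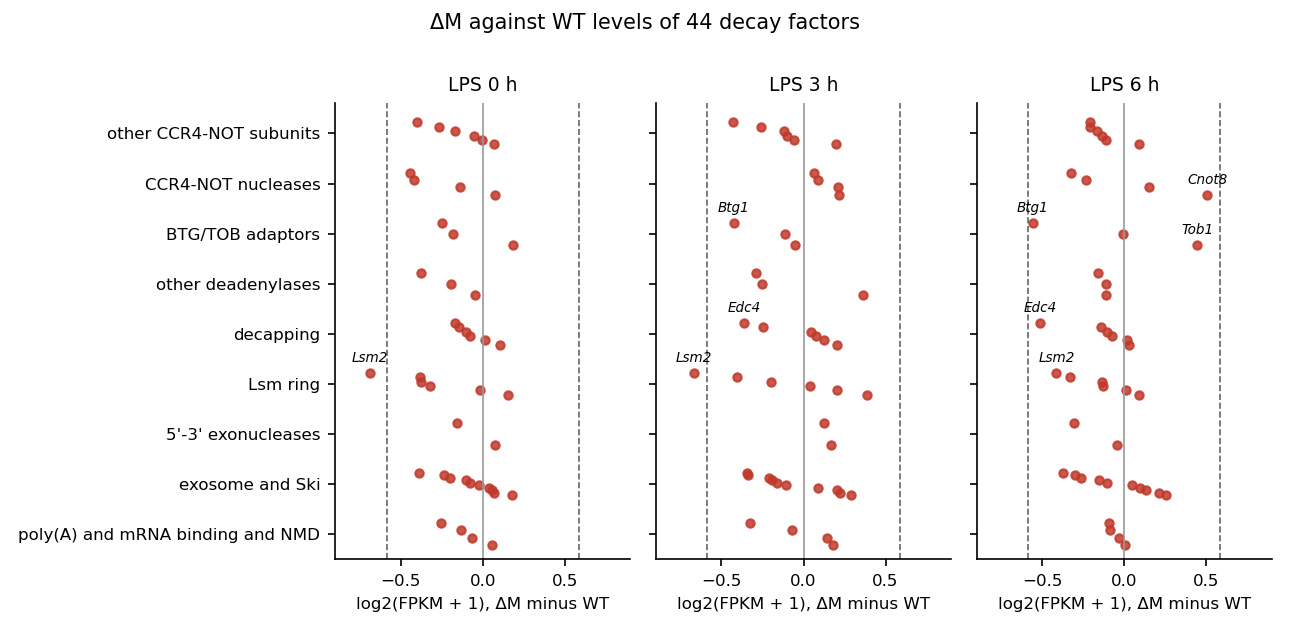
Log2(FPKM + 1) in ΔM minus WT macrophages at 0, 3 and 6 h of LPS (panels), for 44 members by role in the pathway, each point 1 member and its pooled value. Dashed lines mark 1.5-fold; Lsm2 lies past the lower line at 0 and 3 h (-0.69 and -0.67), and no member lies past either line at 6 h.

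The members nearest to the limit at 6 h were an adaptor, a decapping scaffold and a nuclease. Btg1 had log2 ratios of ΔM over WT of 0.18, -0.42 and -0.56 over the LPS course. Edc4, the scaffold that joins Dcp1 and Dcp2, was at 13.4, 11.4 and 9.78 FPKM at 0, 3 and 6 h in ΔM macrophages, against 13.3, 14.96 and 14.4 FPKM in WT macrophages, with log2 ratios of 0.01, -0.36 and -0.51. Cnot8 had the highest ratio at 6 h, 0.51, and Tob1 the next, 0.44. The highest ratios at 3 h were those of Lsm5 (0.38), Pan3 (0.36) and Exosc3 (0.29), and Exosc3 was at 0.26 at 6 h. At 0 h Btg1 (0.18), Exosc7 (0.18) and Lsm1 (0.15) had the highest. At 3 h the level ratio of ΔM to WT ran with the GC content of transcripts, as described below for decay. At 6 h, the neutrophil marker S100a8 was at 15.9 FPKM in ΔM and 4.21 FPKM in WT macrophages. The other neutrophil markers did not share this difference. S100a9 was at 0.40 FPKM in ΔM and 0.37 FPKM in WT macrophages, and Ly6g at 0 in both. Mpo was at 0.05 FPKM in ΔM and 0.19 FPKM in WT macrophages, and Elane at 0.05 and 0.08 FPKM. The part of S100a8 in the differences at 6 h was not tested.

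The loss of these messages was compared between genotypes as the difference of rates over 90 min, in log2 units, with a positive value for slower loss in ΔM macrophages. The rates start from the same libraries as the levels at 3 and 6 h. At 3 h, 1 member was lost more slowly and 6 were lost faster in ΔM macrophages by 1.5-fold of the share remaining, against 6.62% and 12.2% of 10963 genes. At 6 h no member was past the limit in either direction, against 4.39% and 2.15% of genes. The slower one at 3 h was Cnot3, which had a difference of 0.79. It was stable in ΔM macrophages and had a half-life of 158 min in WT macrophages. Exosc4, just within the limit at 0.58, was stable in ΔM macrophages and had a half-life of 177 min in WT macrophages, and its difference at 6 h was -0.21. The 6 faster ones were 4 exosome subunits and 2 Lsm genes. Exosc8, a ring subunit at 6.20 FPKM in ΔM and 5.25 FPKM in WT macrophages at 3 h, had a half-life of 65.1 min in ΔM macrophages at 3 h and was stable in WT macrophages, a difference of -1.34. At 6 h it was at 119 min in ΔM and 135 min in WT macrophages, a difference of -0.09. Exosc3, at 4.28, 3.47 and 3.79 FPKM over the LPS course in ΔM macrophages and 4.07, 2.66 and 3.01 FPKM in WT macrophages, had a half-life of 143 min in ΔM macrophages at 3 h and was stable in WT macrophages, a difference of -0.84, and was stable in both genotypes at 6 h. Exosc1 had half-lives of 130 and 125 min at 3 and 6 h in ΔM macrophages and was stable at both times in WT, with differences of -0.64 and -0.47. Exosc2 and Lsm6 had differences of -0.62 and -0.65 at 3 h and were stable in all 4 groups. Lsm5 had the largest difference, -1.67, but it was stable in all 4 groups, at 0.59 to 1.56 FPKM, and the fitted line in WT macrophages at 3 h ran upward by 1.73. At 6 h Exosc9 had the largest positive difference, 0.39, and Exosc1, Pabpc4 (-0.27) and Lsm4 (-0.22) had the largest negative ones.

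The differences at 3 h ran with base composition, across all genes as well as in this set. Over 9757 genes with an annotated transcript, Spearman's rho of the difference with transcript GC content was 0.56 at 3 h and -0.04 at 6 h. Over the 43 annotated members it was 0.50 at 3 h and -0.15 at 6 h. For the rates themselves over the 9757 genes, rho was negative only in WT macrophages at 3 h, at -0.23. It was 0.29 in ΔM macrophages at 3 h, and 0.15 in ΔM and 0.14 in WT macrophages at 6 h. The level ratio of ΔM to WT at 3 h had a rho of -0.41 over 9832 genes and -0.61 over 43 members. All values of a comparison share the same pooled libraries, and genes are not independent replicates. In 20 bins of GC content, the median difference in decay at 3 h ran between -0.46 in the bin with a median of 39.1% GC and 0.40 in that with 60.9%, while at 6 h it was between 0.02 and 0.09 in every bin. With the bin medians taken off, a setting chosen after seeing the data, 7 members were past the limit at 3 h, 3 with slower and 4 with faster loss, against 3.9% and 7.47% of 9757 genes. Exosc8 (-1.43), Lsm5 (-1.20), Exosc3 (-0.78) and Exosc2 (-0.66) still had faster loss in ΔM macrophages, whereas Cnot3 (0.52), Lsm6 (-0.48) and Exosc1 (-0.47) were within the limit. Cnot4 (0.92), Btg1 (0.65) and Tob1 (0.63) came to lie past it on the slower side.

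**Figure D4:**
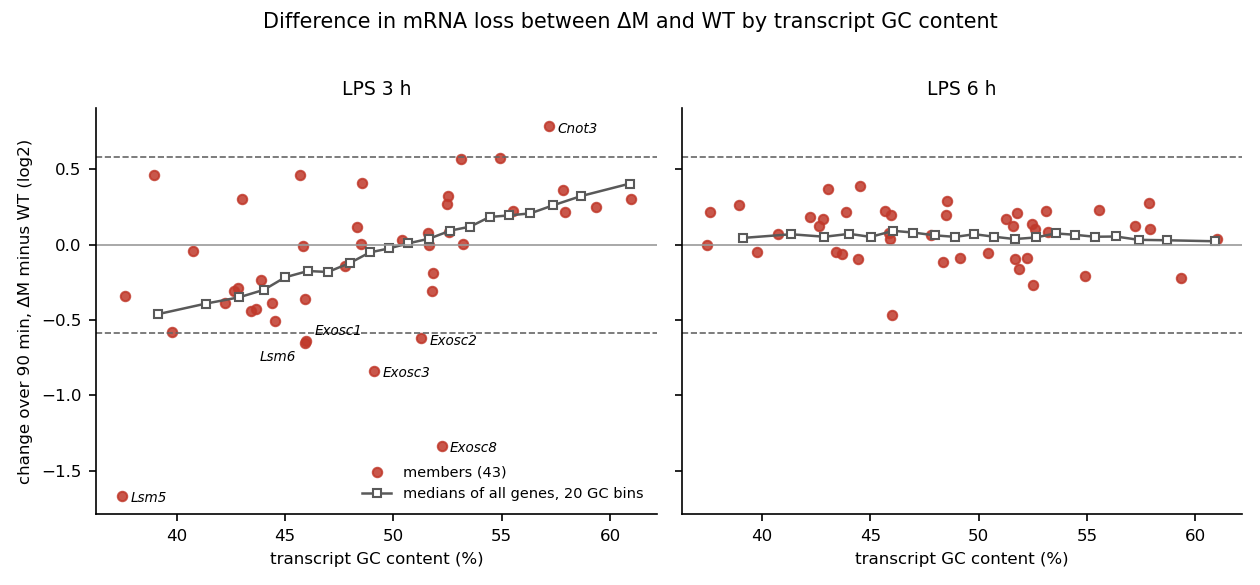
Difference in the change over 90 min of actinomycin D, ΔM minus WT macrophages (log2, vertical axis), against the GC content of the longest coding transcript (%, horizontal axis), at 3 h (left) and 6 h (right) of LPS. Red points are the 43 annotated members, open squares the medians of all genes in 20 GC bins and dashed lines 1.5-fold. At 3 h the bin medians climb with GC content between -0.46 and 0.40, and at 6 h they stay between 0.02 and 0.09.

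The 6 short-lived messages had slower loss in ΔM macrophages at both times, within 1.5-fold as measured. At 3 h this depended on the setting, since Tob2 (0.65) was past the limit with the median of all genes taken off, and Cnot4, Btg1 and Tob1 were past it with the GC bin medians taken off. The differences at 3 h were 0.57 for Tob2, 0.46 for Cnot4, 0.46 for Tob1, 0.41 for Dcp1a, 0.30 for Btg1 and 0.07 for Edc3. At 6 h they were 0.37 for Btg1, 0.29 for Dcp1a, 0.27 for Cnot4, 0.22 for Tob1, 0.22 for Tob2 and 0.13 for Edc3. Of the 1246 genes with half-lives under 180 min in all 4 groups, 47.6% had slower loss in ΔM macrophages at both times. At 6 h, where the difference did not run with GC content, 78.7% of these genes had slower loss in ΔM macrophages, with a median of 0.21, beside a median of 0.24 for the 6 members. At the level of mRNA, the 6 were not uniformly higher in ΔM macrophages. Tob1 was higher at 6 h, with 4.43 FPKM in ΔM and 2.99 FPKM in WT macrophages. Btg1 was lower, with 7.04 FPKM in ΔM and 10.8 FPKM in WT macrophages, and Tob2 was nearly equal, with 16.3 FPKM in ΔM and 16.4 FPKM in WT macrophages.

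Between 3 and 6 h of LPS, the rates changed for few members. In ΔM macrophages 4 members had slower and 2 had faster loss at 6 h than at 3 h, against 7.22% and 2.75% of genes, and in WT macrophages 0 had slower and 3 faster loss, against 5.56% and 7.32%. Tob2 had faster loss at 6 h in ΔM macrophages, by -0.65, beside -0.30 in WT macrophages. Pabpc4 also had faster loss at 6 h in ΔM macrophages, by -0.61, and was stable at both times. Among those slower at 6 h in ΔM macrophages was Cnot2, a CCR4-NOT subunit. Its half-life was 105 min at 3 h, while at 6 h it was stable. In WT macrophages it was likewise stable at 6 h, with 145 min at 3 h. In both genotypes Exosc7 was stable at 3 h and under 180 min at 6 h, with 146 min in ΔM and 172 min in WT macrophages. Edc4 did likewise, with 173 min in ΔM and 120 min in WT macrophages at 6 h. Cnot4 was lost more slowly at 6 h in both genotypes, by 0.36 in ΔM and 0.55 in WT macrophages. Exosc2 (0.67) and Lsm5 (0.70) were slower by more than the limit in ΔM macrophages, and Cnot3 was faster at 6 h, by -0.40. In WT macrophages Lsm5 (-0.96), Exosc9 (-0.70) and Exosc8 (-0.62) were faster at 6 h, and Exosc4 (0.44) and Parn (0.34) slower within the limit. Exosc4 had -0.35 in ΔM macrophages. Cnot2 was at 5.78, 5.05 and 3.62 FPKM in ΔM macrophages, against 7.96, 5.49 and 3.99 FPKM in WT. The changes in rate between 3 and 6 h also ran with GC content. Spearman's rho was 0.48 in WT and -0.22 in ΔM macrophages over 9757 genes, and 0.41 and -0.42 over 43 members. With the GC bin medians taken off, Lsm5 (-0.58) and Exosc9 (-0.52) were within the limit in WT macrophages. Cnot4 (0.93) then lay past it on the slower side, and Exosc8 (-0.68) stayed past it on the faster side. In ΔM macrophages Cnot2 (0.52) and Lsm5 (0.58) were then within it.

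Of other genes of the pathway, 57 from a list written from general knowledge were measured and 55 were past the FPKM limit. In ΔM macrophages none was 1.5-fold higher or lower than in WT macrophages at 0 h, against 3.32% and 4.79% of all genes. At 3 h, 2 were higher and 2 lower, against 3.25% and 4.38%. At 6 h, 3 were higher and 0 lower, against 1.67% and 3.06%. The largest ratio was that of Zfp36l2, a paralogue of TTP, at 123, 11.96 and 21.2 FPKM at 0, 3 and 6 h in ΔM macrophages, against 119, 6.01 and 5.98 FPKM in WT macrophages. Its half-life was 172 and 130 min in ΔM macrophages at 3 and 6 h and 82.0 and 67.3 min in WT macrophages. No member of the machinery had a ratio of that size. A half-life under 180 min in all 4 groups was found for 13 of the 55, against 11.4% of all genes, among them Btg2, a further adaptor of the CAF1-type nucleases, Pnrc1, which binds the decapping complex, and Tnrc6a, which links microRNA complexes to CCR4-NOT.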

How the data were processed

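Per the paper and the submitters' processing notes, the authors prepared libraries with the SENSE mRNA-Seq kit, sequenced single ends of 100 bp, aligned the reads to mm10 by GSNAP and quantified transcripts with Mix2. The FPKM deposited are 1 value per group, pooled over replicates, and sum to 675870 to 713873 per group. The authors fitted log2 FPKM against minutes of actinomycin D, and the slope and half-life of each fit were deposited as 1 value per group; the column of ΔM rates at 3 h is headed KO in the file. Half-lives equal -1 over the rate, and from 180 min are written as stable. Columns with the authors' log2 fold changes and FDRs from DESeq2 were not used, so no p-value is given. No library totals were at hand, and depth and counting error are unknown.

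Log2 ratios were computed on FPKM with a pseudocount of 1, for genes with a mean of at least 1 FPKM over the 6 groups. Rate differences were multiplied by 90 min. A difference of 1.5-fold was counted. Alternatives were a pseudocount of 0.1, no minimum, a minimum of 5 FPKM, 2-fold, the median of all genes taken off, a half-life rule, a limit of 120 min and, chosen after seeing the data, medians of 20 GC bins taken off. Transcript features came from GENCODE vM1 by Ensembl identifier. Lsm3 was not matched, and GC content is that of the longest coding transcript. The calculation was tested on simulated data and run in Python 3.11.15 (pandas 2.3.3, numpy 2.4.6, scipy 1.17.1; figures in matplotlib 3.10.9). The members and gene lists were chosen with earlier results of these data known. Named in full are, by rule, the 3 members highest and lowest in each comparison, those under 180 min in all 4 groups, 5 pairs of paralogues and the most and least abundant member of each role. Others were chosen after their values were seen.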

Additional observations from a re-analysis of the deposited data

Results flagged for a closer look

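The loss of 2 members moved in opposite directions between 3 and 6 h of LPS in the 2 genotypes, each past 1.5-fold, as it did for 1.17% of 10963 genes. Exosc8 was lost more slowly at 6 h than at 3 h in ΔM macrophages, by 0.63 log2 units over 90 min, and faster in WT macrophages, by -0.62. Lsm5 had a change of 0.70 in ΔM and -0.96 in WT macrophages, at levels of 0.60 to 1.53 FPKM in ΔM and 0.59 to 1.56 FPKM in WT macrophages. The difference between genotypes was not tested. With the medians of GC bins taken off, Lsm5 was within the limit in both genotypes, at 0.58 in ΔM and -0.58 in WT macrophages, and Exosc8 was at 0.57 in ΔM and -0.68 in WT macrophages.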

How the results depend on the processing

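Every count of members rests on 1 pooled value per group, so leaving out replicates was not run. No paired analysis was possible because the columns carry no replicate numbers. For ΔM over WT, a 2-fold limit left 0 members at 0 and 3 h. With a pseudocount of 0.1, 2 members, Lsm2 and Lsm5, were past 1.5-fold at 3 h and 1, Btg1, at 6 h. With GC bin medians taken off, 0 were past it at 3 h, where Lsm2 came to -0.58. For LPS 3 h over 0 h, 5 members passed 2-fold in ΔM and 4 in WT macrophages. With the median taken off, 9 passed 1.5-fold in each genotype, and with GC bin medians 9 in ΔM and 8 in WT. For 6 h over 3 h, 1 passed 2-fold in ΔM and 2 in WT, 4 in ΔM with the median or the GC bin medians taken off, and 11 in WT with a pseudocount of 0.1. For decay in ΔM minus WT at 3 h, 4 members were counted at a minimum of 5 FPKM and 2 at 2-fold. At 6 h, 1 member, Exosc1, was stable in 1 genotype only. For decay at 6 h minus 3 h, 0 passed 2-fold in either genotype, and 7 in WT were stable at 1 time only. With GC bin medians taken off, 3 were past 1.5-fold in ΔM and 2 in WT. A limit of 120 min left 7 members in ΔM at 3 h, 5 in ΔM at 6 h and 6 in WT at 6 h. Of the named values, none changed sign under an alternative in which it was past 1.5-fold. They moved by over 0.1 for 33 of 66 with GC bin medians taken off, 24 of 66 with the median and 14 of 42 with a pseudocount of 0.1.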
